A study of Homo sapiens with 6 samples.

Results

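The receptor S1PR1 and 8 other genes that guide lymphocytes into, through and out of lymphoid organs were followed in a Hodgkin lymphoma line after knockdown of the transcription factor BATF3. They are the sphingosine 1-phosphate (S1P) receptors S1PR1, S1PR2 and S1PR4, the chemokine receptors CCR7, CXCR4 and CXCR5, the oxysterol receptor GPR183, the transcription factor KLF2 and the membrane protein CD69. All probe sets that the platform annotation assigns to 1 of these genes alone were taken, which gave 20 of the 49393 probe sets and 9 of the 18244 genes. The genes were chosen with results of the same comparison known, so their changes are given as a description. No value of theirs supports the choice.

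The tested cells were L428, an established human Hodgkin lymphoma line, nucleofected with a Silencer Select siRNA against BATF3. The control cells were L428 nucleofected with Silencer Select Negative Control No. 1 siRNA. Each nucleofection used 3 µg of siRNA, RNA was taken after 48 hours of culture, and 3 arrays were made per siRNA. Expression was read on Affymetrix PrimeView arrays and deposited as log2 values. All groups are of 1 cell line, the knockdown rests on 1 siRNA, and an untreated or mock-nucleofected group was not analysed here.

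Lymphocytes leave lymphoid tissue along a gradient of the lipid S1P, which is low in the tissue and high in blood and lymph and is sensed by S1PR1. CD69 binds S1PR1 and takes it off the cell surface, and KLF2 drives transcription of the S1PR1 gene in mouse T cells. CCR7, CXCR4, CXCR5 and GPR183 act the other way and hold or place cells in T zones, follicles and their borders, each by following its own ligand. All of the receptors couple to heterotrimeric G proteins. S1PR2 differs from S1PR1 in that it restrains migration of germinal centre B cells through the G protein alpha subunit that GNA13 encodes.

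The labels were checked on the targeted gene. BATF3 read 10.87, 10.76 and 10.69 (log2) in BATF3 siRNA replicates 1 to 3, against 11.89, 12.08 and 11.94 in control siRNA replicates 1 to 3. Its change was −1.20 (SE 0.095; limma adjusted p = 0.00673 over all genes), and a two-sided exact permutation test of the 6 values gave p = 0.1, the lowest this design can reach. Of 10 genes that mark Hodgkin lines, 9 read above the highest background probe set on all arrays, and CCL22 on none. That held for 2 of 9 measured B cell markers (CD79B and PAX5), for 0 of 10 T and NK cell markers and for 0 of 8 myeloid markers. Background probe sets carry sequences with no target in the genome, and the highest of them read 6.68 to 7.32. Those of high GC content (20 to 25 G or C per probe) averaged 5.92 and 5.98 in BATF3 siRNA replicates 2 and 3, and 6.46 to 6.49 in the other 4 arrays. BATF3 siRNA replicate 1 thus had the background of the controls. Whether replicates were separate cultures is not given by the labels, and the p-values therefore measure only the spread between these arrays, which may be technical.

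S1PR1 mRNA was lower after BATF3 siRNA on every array and by every probe set. Its brightest probe set, which stood for the gene, read 8.92, 9.05 and 8.84 after BATF3 siRNA, against 9.87, 9.38 and 9.85 after control siRNA. The groups did not overlap, and 0.33 lay between the highest BATF3 siRNA array (replicate 2) and the lowest control array (also replicate 2). The means were 8.93 ± 0.11 and 9.70 ± 0.28 (SD, n = 3 each), a change of −0.77 (SE 0.14) or 0.587 of the control level (95% confidence interval 0.474 to 0.728). Such a ratio cannot tell fewer cells with S1PR1 mRNA from less S1PR1 mRNA per cell. The change was the fourth most negative of 18244 genes, and 12 genes, S1PR1 included, changed by as much in either direction.

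With limma over all genes S1PR1 did not pass the threshold of an adjusted p under 0.05 (adjusted p = 0.226). None of the 9 genes passed it, where 0.0164% of all genes did, and S1PR1 alone had an unadjusted p under 0.05, where 7.15% of all genes did. Since the genes were chosen on this contrast, nothing is read from these counts.

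The other S1PR1 probe sets gave nearly the same difference. Probe set 11743816_s_at read 8.46, 8.88 and 8.69 after BATF3 siRNA, against 9.46, 9.26 and 9.49 after control siRNA, a change of −0.73 (SE 0.13). Probe set 11752382_a_at read 7.09, 7.38 and 7.17 after BATF3 siRNA, against 8.02, 7.97 and 8.02 after control siRNA, a change of −0.79 (SE 0.10). In the annotation the first and second probe sets share a source sequence, while the third was designed on a different one. In all 3 the highest BATF3 siRNA array and the lowest control array were replicate 2. Only the third came near the background: in BATF3 siRNA replicate 1 its 7.09 was below that array's highest background reading (7.18). Over the whole array the groups failed to overlap, with BATF3 siRNA lower, in 5.86% of probe sets.

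**Figure D1:**
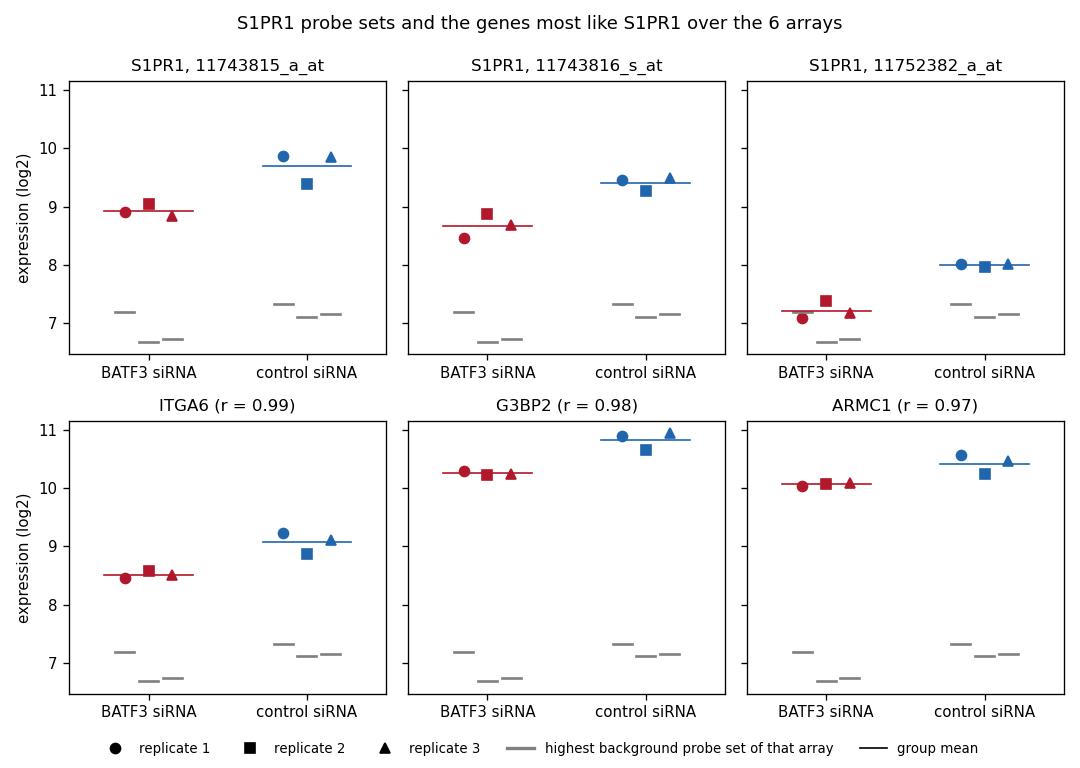
Log2 expression on each of the 6 arrays for the 3 S1PR1 probe sets (top) and for the 3 genes whose values were most like those of S1PR1 (bottom), with BATF3 siRNA in red left of control siRNA in blue. Symbols are replicates, coloured lines are group means and grey ticks mark each array's highest background reading. In all 6 panels the BATF3 siRNA arrays lie below the control arrays, and control replicate 2 is the lowest control.

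S1PR1 was lower in the BATF3 siRNA arrays of either background, but all control arrays had the higher one. Only BATF3 siRNA replicate 1 thus had controls of like background. For replicates 2 and 3 the siRNA and the array background cannot be told apart. BATF3 siRNA replicate 1, with a background like the controls, lay at −0.79 from the control mean, and replicates 2 and 3, with the lower background, at −0.65 and −0.86. Over the 17 alternative fits the change of S1PR1 ran from −0.93 without control siRNA replicate 2 to −0.68 without control siRNA replicate 1. As the groups did not overlap, fits that drop, weight or block arrays could not turn its sign. The constant sign is therefore not read as support.

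The genes whose log2 values were most like those of S1PR1 over the 6 arrays were ITGA6, G3BP2 and ARMC1. They came from 1078 genes that were on average above the highest background probe set and ranged over at least 0.5. ITGA6 encodes the alpha 6 integrin chain, which forms laminin receptors, and had a Pearson r of 0.99. It read 8.45, 8.58 and 8.51 after BATF3 siRNA, against 9.23, 8.86 and 9.12 after control siRNA. G3BP2, an RNA-binding protein of stress granules, had an r of 0.98 and ARMC1 an r of 0.97. Their changes were −0.58 for G3BP2 and −0.35 for ARMC1. With 6 arrays that differ by siRNA, such a likeness mostly follows the difference between the groups, and 10 genes reached an r of 0.9. It is given as a description with no test.

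The promoters of S1PR1 and S1PR2 are shown because the pair of S1P receptors that were above background differed in their change. RefSeq windows (GRCh38.p14) were found for 7 of the 9 genes, and the 250 bases before the gene start are printed 5′ to 3′ on the gene's strand. Capitals mark matches on either strand to the AP-1 motif TGANTCA, the CRE motif TGACGTCA, the KLF motif CACCC and the FOXO motif GTAAACA. In the windows below no match overlaps another. The S1PR1 window is chr1:101236769-101237018 on the plus strand and the S1PR2 window is chr19:10231332-10231581 on the minus strand.
S1PR1: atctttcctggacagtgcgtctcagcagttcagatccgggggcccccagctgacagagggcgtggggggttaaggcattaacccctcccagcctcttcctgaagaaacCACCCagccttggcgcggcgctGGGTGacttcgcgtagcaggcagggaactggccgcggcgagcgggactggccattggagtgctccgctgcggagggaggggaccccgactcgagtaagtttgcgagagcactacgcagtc
S1PR2: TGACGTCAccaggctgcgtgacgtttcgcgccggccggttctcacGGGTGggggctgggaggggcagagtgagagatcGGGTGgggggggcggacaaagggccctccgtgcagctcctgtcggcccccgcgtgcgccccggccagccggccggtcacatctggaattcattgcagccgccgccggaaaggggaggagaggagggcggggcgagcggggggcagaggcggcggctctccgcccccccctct

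The S1PR1 window held 2 matches to CACCC, the core bound by KLF factors, starting 142 and 120 bases before the gene start. Of the 35116 promoter windows of the same length, 54.7% held a CACCC. The TGANTCA letters that BATF and JUN dimers bind were in neither window, and in 6.57% of all windows. The S1PR2 window held a full CRE, which 1.65% of windows hold, and 2 matches to CACCC. CREB and ATF dimers bind the CRE, but not they alone, and which motif BATF3 uses in these cells was not tested. The FOXO motif was in neither window and in 2.98% of all windows. A match describes letters and is not a binding site, and a motif that is absent here may lie elsewhere.

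S1PR2 read above the background on all arrays, with group means that nearly coincided. It read 8.47, 8.15 and 8.13 after BATF3 siRNA, against 8.08, 8.36 and 8.29 after control siRNA. The groups overlapped, and the change was 0.0058 (SE 0.12, 95% confidence interval −0.27 to 0.28). From the control mean, BATF3 siRNA replicate 1, with the background of the controls, lay at 0.22. Replicates 2 and 3, with the lower background, lay at −0.094 and −0.11. In both of its probe sets BATF3 siRNA replicate 1 was the highest of the 6 arrays. Leaving that array out gave −0.10 and leaving out control siRNA replicate 1 gave −0.074, so its sign rested on single arrays. The second probe set changed by 0.040. With the array background as a block, a fit that compares BATF3 siRNA replicate 1 alone with the controls, it changed by 0.35.

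S1PR4, a receptor of blood and lymphoid cells, lay under the highest background probe set on all 6 arrays. It read 6.30, 6.27 and 6.17 after BATF3 siRNA, against 6.22, 6.25 and 6.42 after control siRNA, and the groups overlapped. Its change of −0.051 (SE 0.093) turned to 0.0077 without control siRNA replicate 3. Background differs with the GC content of the probes, which was not looked up for these probe sets, and the size of a change at such levels is uncertain. This holds for each gene below that is said to lie under the background.

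CCR7, the receptor for CCL19 and CCL21, read above the background on all arrays and was slightly lower after BATF3 siRNA. Its only probe set read 11.85, 11.62 and 11.71 after BATF3 siRNA, against 11.87, 11.96 and 11.91 after control siRNA. The groups did not overlap, by a margin of 0.014, and the change was −0.18 (SE 0.093, ratio 0.883, 95% confidence interval 0.764 to 1.02). Of all genes, 5.78% did not overlap with BATF3 siRNA lower. The difference was larger in the arrays with the lower background. BATF3 siRNA replicate 1 lay at −0.056 from the control mean, and replicates 2 and 3 at −0.29 and −0.20. A fit with the array background as a block gave −0.056, as it compares BATF3 siRNA replicate 1 alone with the controls. With no control array of the lower background, that fit cannot tell the background from a difference between single arrays. CCR7 and S1PR1 were the only 2 of the 9 genes whose groups did not overlap.

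**Figure D2:**
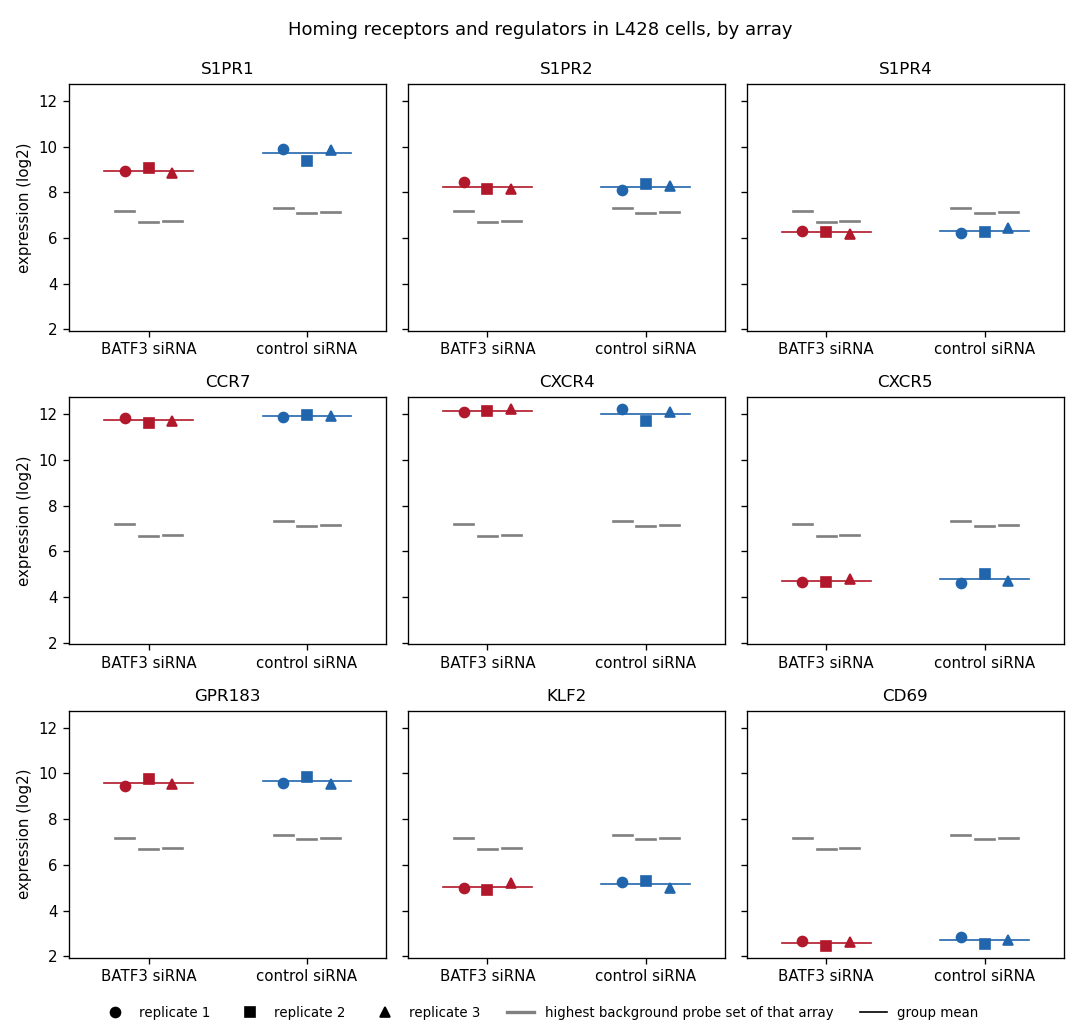
Log2 expression of the 9 genes on each of the 6 arrays, with BATF3 siRNA in red left of control siRNA in blue on a shared axis. Symbols are replicates, coloured lines are group means and grey ticks mark each array's highest background reading. S1PR1, S1PR2, CCR7, CXCR4 and GPR183 lie above the grey ticks on all arrays, S1PR4, CXCR5, KLF2 and CD69 lie below them, and S1PR1 shows the widest gap between the siRNAs.

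CXCR4, the receptor for CXCL12, was higher in the mean after BATF3 siRNA in all 4 of its probe sets, by 0.059 to 0.15, and the groups overlapped in each. The probe set that stood for the gene read 12.09, 12.15 and 12.25 after BATF3 siRNA, against 12.22, 11.72 and 12.10 after control siRNA. Control siRNA replicate 2 was the lowest of the 6 arrays in all 4 probe sets. Without it the change of 0.15 (SE 0.13) was 0.0082, so most of the difference lay in that 1 array. In 3 of the 4 probe sets replicate 2 was also the lowest BATF3 siRNA array.

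GPR183, which follows an oxysterol and places B cells at the follicle border, read 9.44, 9.77 and 9.56 after BATF3 siRNA, against 9.59, 9.85 and 9.53 after control siRNA. Replicate 2 was the highest array of each siRNA, and the groups overlapped. The change was −0.069 (SE 0.12, 95% confidence interval −0.34 to 0.20) and −0.0063 in the second probe set. It turned to 0.028 without control siRNA replicate 2 and to 0.0065 without BATF3 siRNA replicate 1.

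CXCR5, the CXCL13 receptor of follicular B cells, lay under the background on all arrays. It read 4.68, 4.65 and 4.78 after BATF3 siRNA, against 4.63, 5.02 and 4.73 after control siRNA. The groups overlapped, with control siRNA replicate 2 the highest array, and without it the change of −0.088 (SE 0.11) was 0.026.

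The regulators KLF2 and CD69 also lay under the background on all arrays. KLF2 read 5.0, 4.90 and 5.21 after BATF3 siRNA, against 5.25, 5.27 and 4.99 after control siRNA, a change of −0.13 (SE 0.12). With 1 array left out it ran from −0.22 (without control siRNA replicate 3) to −0.064 (without BATF3 siRNA replicate 2). Its second probe set changed by −0.18, and the groups overlapped in both. CD69 read 2.67, 2.43 and 2.60 after BATF3 siRNA, against 2.86, 2.52 and 2.72 after control siRNA, a change of −0.13 (SE 0.11). With 1 array left out it ran from −0.22 (without control siRNA replicate 2) to −0.051 (without control siRNA replicate 1). Its other probe sets changed by −0.022 and 0.10, so they differed in sign. In the probe set at 0.10 the groups did not overlap, with levels of 2.08 to 2.16 after BATF3 siRNA and 1.98 to 2.02 after control siRNA, near the floor of the array. Higher probe sets without overlap made up 6.38% of all.

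**Figure D3:**
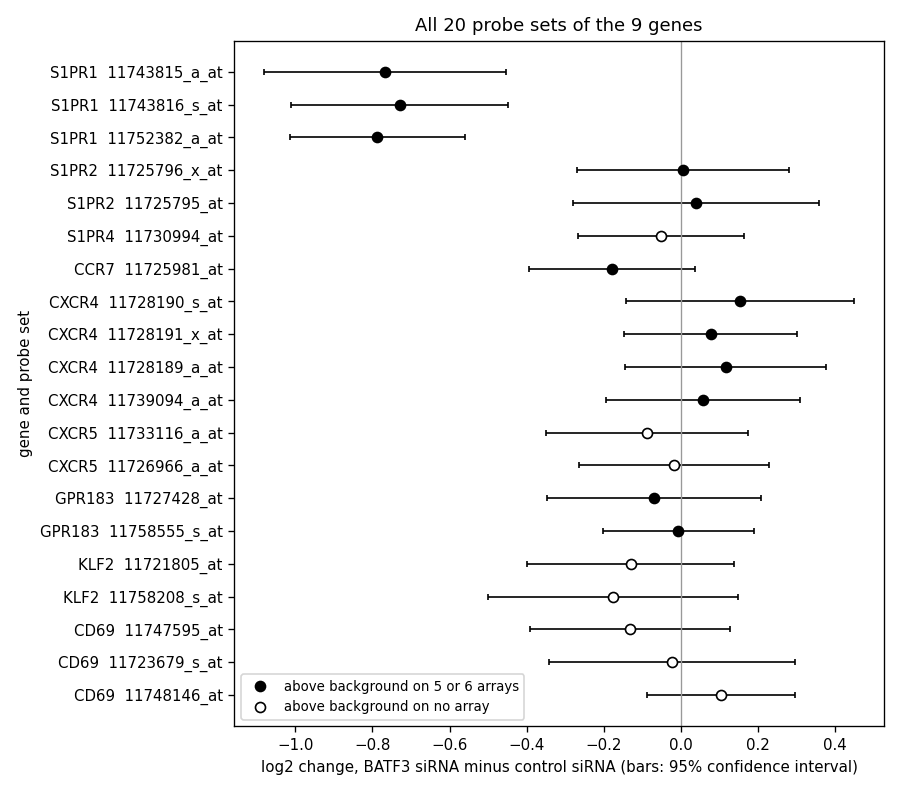
Log2 change (BATF3 siRNA minus control siRNA) of all 20 probe sets of the 9 genes, with 95% confidence intervals from the limma fit per probe set over 3 arrays per siRNA. Filled points lie above the highest background probe set on 5 or 6 arrays and open points on none. The 3 S1PR1 probe sets lie between −0.79 and −0.73, and the other 17 between −0.18 and 0.15.

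Across the 9 genes, 7 had a negative and 2 a positive change, with a median of −0.088. Over all genes the median was −0.0027, and 51.0% were negative. Leaving out S1PR1, the changes of the 8 other genes ran from −0.18 (CCR7) to 0.15 (CXCR4). In the fit per probe set 0 of the 20 probe sets passed an adjusted p under 0.05, where 0.0101% of all probe sets did, and 3, those of S1PR1, had an unadjusted p under 0.05, where 7.16% of all did.

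The other genes of these pathways were taken from 7 lists, which held 104 measured genes beside the 9. Of these 104, 0 passed limma's adjusted p under 0.05, where 0.0164% of all genes did, and 14 had an unadjusted p under 0.05, where 7.15% did. The changes of 59 were positive and of 45 negative, with a median of 0.025. The groups did not overlap for 10 that were higher and 6 that were lower, where 6.36% and 5.78% of all genes did so.

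Of the enzymes and transporters that make, move and break down S1P, 0 passed the threshold, where 0.0164% of all genes did. Of 20 measured, 11 lay above the background on all arrays, and their changes ran from −0.19 to 0.21 with a median of 0.010. ABCA1, a lipid transporter, changed by 0.21 and CERS4, a ceramide synthase, by −0.19, both from levels under the background. SPHK1, the kinase that makes S1P, and SGPL1, the lyase that destroys it, were chosen for their roles after the values were seen. SPHK1 read 7.77, 7.95 and 7.60 after BATF3 siRNA, against 7.67, 8.02 and 7.76 after control siRNA. SGPL1 changed by 0.055 (SE 0.086).

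Of the 2 further S1P receptors, S1PR3 read 5.66, 5.78 and 5.73 after BATF3 siRNA, against 5.58, 5.42 and 5.07 after control siRNA. The groups did not overlap and the change was 0.36 (SE 0.13; limma adjusted p = 0.612), at levels under the background. S1PR5, known from NK cells, was also under the background and changed by −0.11.

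Among 21 measured chemokine receptors, 3 lay above the background on all arrays. These were CCR7, CXCR4 and CCR4, the receptor for CCL17 and CCL22, which is named here after its values were seen. CCR4 read 10.90, 10.68 and 10.77 after BATF3 siRNA, against 11.01, 10.89 and 10.93 after control siRNA, a change of −0.16 (SE 0.094). Apart from the homing receptors described above, ACKR3 and CXCR6 had the smallest p of the list, with changes of −0.18 and 0.24, both under the background. For ACKR3 the 4 probe sets ran from −0.18 to 0.23 and so differed in sign. All 8 measured ligands of the homing receptors and enzymes of oxysterol synthesis lay under the background on every array. CYP27A1, a sterol hydroxylase, changed by −0.32 and CYP7B1, which helps make the GPR183 ligand, by −0.15.

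The genes that couple the receptors to G proteins or switch them off included RGS1 and RGS13, which read higher on all BATF3 siRNA arrays than on all control arrays. RGS1, which speeds up GTP hydrolysis by Gi proteins and dampens chemokine responses of B cells, read 10.50, 10.23 and 10.50 after BATF3 siRNA, against 9.99, 9.91 and 9.98 after control siRNA. The groups did not overlap in either of its 2 probe sets, which changed by 0.45 and 0.58 (SE of the first 0.10; limma adjusted p = 0.418). RGS13, a relative found in germinal centre B cells, read 7.39, 7.34 and 7.44 after BATF3 siRNA, against 7.16, 6.63 and 6.87 after control siRNA. Its change was 0.50 (SE 0.13; limma adjusted p = 0.448), and it lay above the background only on the 3 BATF3 siRNA arrays. In this list 17 of 27 changes were positive and 10 negative. The lowest was that of RGS3, named here after its values were seen, at −0.38 (SE 0.16). RGS3 lay under the background and its groups overlapped. An unadjusted p under 0.05 was found for 6 of the 27 genes, where 7.15% of all genes had one. None passed the adjusted threshold, where 0.0164% of all genes did. The groups failed to overlap for 5 higher genes and 1 lower gene, where 6.36% of all genes were higher and 5.78% lower without overlap, and the median change was 0.025.

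The lower gene was GNA13, the G protein gene linked to S1PR2 above, named here after its values were seen. GNA13 read 10.39, 10.19 and 10.31 after BATF3 siRNA, against 10.53, 10.50 and 10.40 after control siRNA, a change of −0.18 (SE 0.092). The gap between the groups was narrow, as it was for CCR7.

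The list around KLF2 and FOXO1 holds related factors, the kinase genes MAP2K5 and MAPK7 and the MEF2 genes that lie upstream of KLF2, and homing genes, S1PR1 among them. In it 10 of 17 changes were positive and the median was 0.058. FOXO1, a transcription factor upstream of KLF2 and homing receptor genes in mouse T cells, is named here for its role after its values were seen. It read 8.75, 8.38 and 8.48 after BATF3 siRNA, against 8.51, 8.30 and 8.39 after control siRNA, and the groups overlapped. IL7R changed by 0.47 and ITGB7, the beta 7 integrin chain of gut homing, by −0.22, both under the background and with overlapping groups. The other IL7R probe sets, also under the background, changed by 0.041 and 0.075, and the second probe set of ITGB7 by −0.093.

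Lectins and other surface molecules of homing held CLEC2B, whose product is an activation-induced ligand of an NK cell receptor. It read 8.80, 8.64 and 8.85 after BATF3 siRNA, against 8.31, 8.08 and 8.19 after control siRNA. Its change was 0.57 (SE 0.10; limma adjusted p = 0.226), while its second probe set, under the background, changed by 0.17. CD44, the hyaluronan receptor, read 10.48, 10.24 and 10.43 after BATF3 siRNA, against 10.71, 10.68 and 10.68 after control siRNA. All 10 CD44 probe sets had a negative change, of −0.35 to −0.12 (limma adjusted p = 0.529 for the gene). The groups did not overlap in 5 of them, where 5.86% of all probe sets were lower without overlap. These probe sets read 1 gene on the same arrays and are not independent. In the list as a whole 8 of 18 changes were positive and the median was −0.042.

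**Figure D4:**
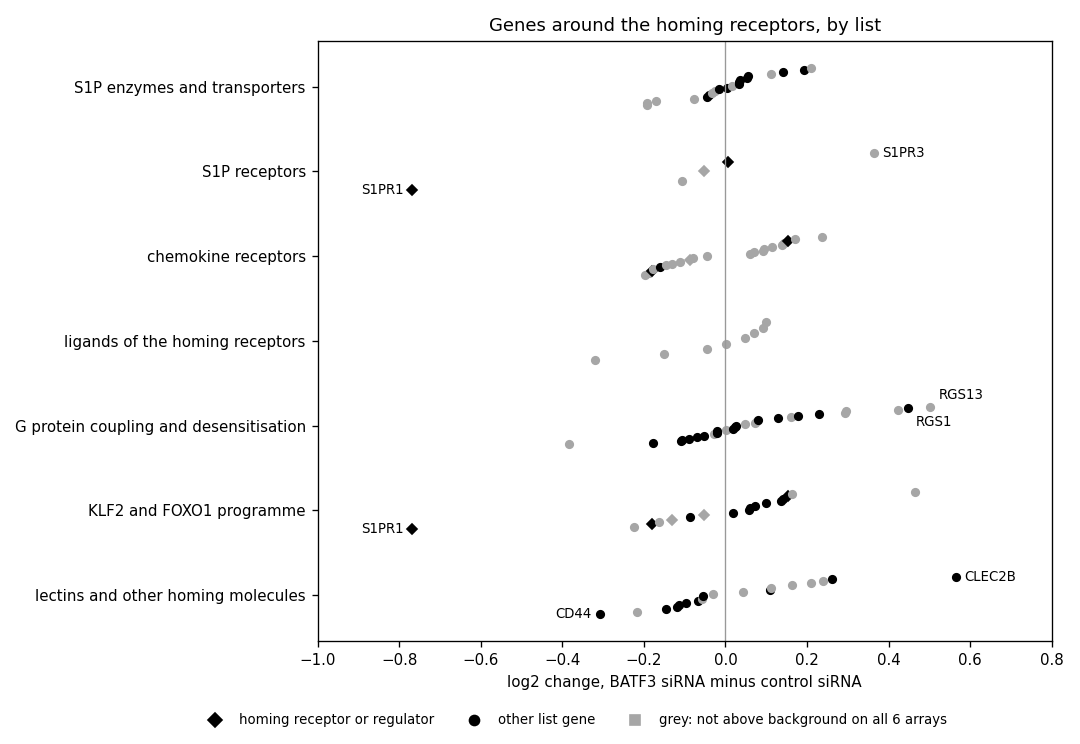
Log2 change (BATF3 siRNA minus control siRNA) of every measured gene in the 7 lists, 1 point per gene in each list. A gene in more than 1 list, such as S1PR1, is drawn in each. Diamonds are the homing receptors and regulators and circles the other genes; black means above the highest background probe set on all 6 arrays. S1PR1 at −0.77 lies farthest from 0, and the other labelled genes lie between −0.31 (CD44) and 0.57 (CLEC2B).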

How the data were processed

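Expression was measured in L428 cells on 6 Affymetrix PrimeView arrays. The authors deposited log2 values, 1 for each probe set of each array; base 2 was inferred from their range (1.58 to 13.9). Per the submitters' processing notes the affy package was used, with no version named, while its settings for background, normalization and summarization are unstated (not given in the sources used here). Normalization to a common scale would hide a shift of most transcripts. The values were used as deposited. The platform annotation gave the gene symbols, and a gene's brightest probe set (by its mean over all 6 arrays) represented it. Replicates were grouped by the labels.

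Differences (BATF3 siRNA minus control siRNA) were tested by lmFit and eBayes of limma 3.58.1, run in R 4.3.3 (two-sided, no covariate, Benjamini-Hochberg over 18244 genes or 49393 probe sets). Precision is limited by the number of arrays, with a median SE of 0.107 per gene. The fit was tested on simulated data. The members, lists and tests were chosen with earlier results of these data known. Genes were named by a rule: BATF3, all 9 members, the 3 genes most like S1PR1, and from each list the called genes or otherwise the 2 with the smallest p, members aside. SPHK1, SGPL1, CCR4, RGS3, GNA13 and FOXO1 were named outside this rule, after their values were seen. Listed genes without a probe set of their own were not analysed here. One further list is not reported here. Alternatives covered normalization, dim genes, probe set choice, variance model, array weights, replicate and background blocks, the threshold and leaving out each array.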

Additional observations from a re-analysis of the deposited data

How the results depend on the processing

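The number of arrays and, for S1PR4, CXCR5, KLF2 and CD69, the nearness to background limit these results. S1PR1 stayed lower in all 17 alternatives. Most of these could not turn its sign, since the groups did not overlap or the same values were used. S1PR1 passed in 1 of them, array weights (change −0.89, limma adjusted p = 0.0217, within a range of 0.0217 to 0.868). There 1 of the 9 genes and 3 of the 20 probe sets were called. Array weights also left 3312 of all 18244 genes at an unadjusted p under 0.05, against 1304 in the main setting. In that fit the weights were 0.91, 0.38 and 3.85 for control siRNA replicates 1 to 3, so the control mean rested mostly on replicate 3. eBayes with trend and robust options called 1 of the 20 probe sets. For this fit and for array weights the share of all probe sets called was not counted. No alternative called any of the 104 list genes. Over all genes limma called 3 in the main setting, with 12 under the trend, 25 under array weights, 0 with the array background as a block (1011 at an unadjusted p under 0.05), 9 and 7 under the filters on dim genes, 5 with the most variable probe set, 6 at an adjusted p under 0.1, and 0 to 2 with 1 array left out. BATF3 siRNA replicate 3 and control siRNA replicate 2 were the arrays whose removal left 0 calls (852 and 1446 genes at an unadjusted p under 0.05). Removing BATF3 siRNA replicate 1 left 1 call, as did removing control siRNA replicate 3. BATF3 itself missed the threshold with the background block (adjusted p = 0.306), without BATF3 siRNA replicate 3 (0.0688) and without control siRNA replicate 2 (0.0648), within a range of 3.82e-05 to 0.306. Small changes reversed. With 1 array left out, S1PR2 ran from −0.10 (without BATF3 siRNA replicate 1) to 0.065 and was −0.074 without control siRNA replicate 1, S1PR4 ran from −0.088 to 0.0077 (without control siRNA replicate 3), and CXCR5 from −0.17 to 0.026 (without control siRNA replicate 2). GPR183 ran from −0.16 to 0.028 (without control siRNA replicate 2) and was 0.0065 without BATF3 siRNA replicate 1. Array weights turned S1PR2 to −0.054, GPR183 to 0.049 and KLF2 to 0.0049, and the background block turned S1PR4 to 0.0037. The cause was not tested. The labels do not say whether the replicate numbers pair the arrays. Deviations of same-numbered arrays correlated at 0.029, 0.15 and −0.026, and the value for replicate 2 was the highest of all pairs. Of the 3 BATF3 siRNA arrays, 1 correlated best with its own number. So few arrays cannot exclude a pairing. With the replicate block limma called 3 genes and none of the 9, and S1PR1 stood at −0.77 (adjusted p = 0.311).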
